A study of Mus musculus with 11 samples.

Results

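The genes that build the cornified envelope were followed through all 11 RNA libraries of sorted murine epidermal cells. Members were the protein-coding genes whose Ensembl symbol starts with *Sprr* or *Lce*, together with *Lor*, *Ivl*, *Flg*, *Flg2*, *Hrnr*, *Rptn*, *Tchh*, *Crct1*, *Crnn*, *Cnfn*, *Tgm1*, *Tgm3*, *Tgm5*, *Casp14*, *Evpl* and *Ppl*. This rule found 52 of the 55536 genes in the count files. Of these, 45 lie in the epidermal differentiation complex on chromosome 3. The other 7 are *Tgm3* and *Tgm5* on chromosome 2, *Cnfn* on chromosome 7, *Casp14* on chromosome 10, *Evpl* on chromosome 11, *Tgm1* on chromosome 14 and *Ppl* on chromosome 16. By family, the members were 14 *Lce1* genes, 6 *Lce3* genes and *Lce6a*, 11 *Sprr2* genes, *Sprr1a*, *Sprr1b*, *Sprr3* and *Sprr4*, 6 S100-fused genes (*Flg*, *Flg2*, *Hrnr*, *Rptn*, *Tchh* and *Crnn*), 3 transglutaminases, the plakins *Evpl* and *Ppl*, and 5 others (*Lor*, *Ivl*, *Crct1*, *Cnfn* and *Casp14*).

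Cells were isolated from the epidermal back skin of male CD4Cre R26-tdT mice on the C57Bl6/N background and sorted by the surface antigens CD49f, CD34 and SCA-1 and by the tdT reporter. The 4 groups were tdT+ CD49f+CD34+ (n = 3), tdTneg CD49f+CD34+ (n = 3), tdT+ CD49f+CD34+SCA-1+ (n = 3) and tdTneg CD49f+CD34+SCA-1+ (n = 2) cells, and the CD49f+CD34+ gate excluded SCA-1. Each library pooled 2 mice, of 29 weeks for replicate 1 and of 32 weeks for replicates 2 and 3, and no treatment was given. All mice carried both transgenes: Cre is driven by *Cd4* regulatory sequence and tdT marks cells in which Cre has been active and their progeny, which also labels T cells. The design asks how the SCA-1+ population differs from the CD49f+CD34+ bulge gate and how tdT+ cells differ from tdTneg cells within each of them.

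The cornified envelope is the protein shell that replaces the plasma membrane of a dying keratinocyte in the outermost epidermis. Envoplakin and periplakin (*Evpl*, *Ppl*) and involucrin (*Ivl*) form its first scaffold, loricrin (*Lor*), the small proline-rich proteins (*Sprr*) and the late cornified envelope proteins (*Lce*) are added later, and transglutaminases crosslink them. Filaggrin and its relatives bundle keratin filaments in the granular and cornified layers, and trichohyalin (*Tchh*) does so in the inner root sheath of the hair follicle.

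Promoters could be matched for 47 of the 52 members in RefSeq (GRCm38.p6), as 250 bases before and 50 bases after the start site. They were searched on both strands for a TATA box (TATAAA), an AP-1 motif (TGANTCA), a grainyhead-like motif (AACNGGTT) and a GC box (GGGCGG). The TATA box was found in 21 of the 47 member promoters, against 13.6% of 32851 promoters of the same length, and the AP-1 motif in 15, against 7.81%. The grainyhead-like motif was found in 2 members (*Tgm5* and *Rptn*), against 2.09% of all promoters, and the GC box in 3, against 35.7%. Members are paralogues and their promoters are not independent sequences, so these shares are descriptions. The promoters shown are those of *Sprr1a*, *Sprr1b* and *Sprr2h*, which were higher in SCA-1+ cells and share no 50-base stretch with another gene, of *Lor*, the classical late envelope gene, and of *Tgm5*, the member called lower. They lie at chr3:92485832-92486131, minus strand (*Sprr1a*), chr3:92438730-92439029, minus strand (*Sprr1b*), chr3:92385435-92385734, plus strand (*Sprr2h*), chr3:92083093-92083392, minus strand (*Lor*) and chr2:121085792-121086091, minus strand (*Tgm5*). Each is written 5′ to 3′ on the gene's strand with the motifs in capitals.
Sprr1a: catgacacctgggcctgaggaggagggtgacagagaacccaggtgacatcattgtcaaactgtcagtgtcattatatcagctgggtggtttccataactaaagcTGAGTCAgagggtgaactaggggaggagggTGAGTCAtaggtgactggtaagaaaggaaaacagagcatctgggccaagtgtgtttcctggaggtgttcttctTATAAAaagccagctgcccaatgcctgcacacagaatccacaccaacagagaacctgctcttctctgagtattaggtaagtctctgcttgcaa
Sprr1b: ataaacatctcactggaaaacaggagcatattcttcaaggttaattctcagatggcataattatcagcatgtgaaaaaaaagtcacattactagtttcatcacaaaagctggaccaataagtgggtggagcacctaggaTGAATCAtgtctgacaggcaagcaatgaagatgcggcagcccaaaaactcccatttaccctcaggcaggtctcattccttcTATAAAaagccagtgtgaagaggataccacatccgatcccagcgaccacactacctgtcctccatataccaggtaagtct
Sprr2h: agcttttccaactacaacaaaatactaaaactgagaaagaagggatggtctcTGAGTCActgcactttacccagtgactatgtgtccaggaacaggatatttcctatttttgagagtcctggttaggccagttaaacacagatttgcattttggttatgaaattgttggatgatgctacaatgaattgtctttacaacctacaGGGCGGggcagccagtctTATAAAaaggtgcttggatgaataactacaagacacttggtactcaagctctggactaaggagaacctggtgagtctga
Lor: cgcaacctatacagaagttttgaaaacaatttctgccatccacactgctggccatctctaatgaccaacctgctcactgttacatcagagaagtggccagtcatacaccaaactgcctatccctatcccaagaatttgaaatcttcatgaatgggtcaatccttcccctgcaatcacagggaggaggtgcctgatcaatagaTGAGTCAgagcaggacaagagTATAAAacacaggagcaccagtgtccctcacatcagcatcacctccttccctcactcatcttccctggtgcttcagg
Tgm5: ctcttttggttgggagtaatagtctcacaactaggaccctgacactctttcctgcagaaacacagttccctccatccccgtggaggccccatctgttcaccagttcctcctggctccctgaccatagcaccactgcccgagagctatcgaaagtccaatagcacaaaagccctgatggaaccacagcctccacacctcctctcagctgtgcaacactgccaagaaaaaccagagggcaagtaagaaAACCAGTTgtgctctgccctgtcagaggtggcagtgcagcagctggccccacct
Counted from 0 at the start site, the 2 AP-1 motifs of *Sprr1a* begin at -146 and -116 and its TATA box at -43. The AP-1 motif and TATA box begin at -111 and -30 in *Sprr1b*, at -198 and -29 in *Sprr2h*, which also has a GC box at -47, and at -48 and -27 in *Lor*. The *Tgm5* promoter held only the grainyhead-like motif, at -4, and those of *Casp14* and *Tchh* held none of the 4 motifs.

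The libraries held 17409131 to 46542177 counts on genes. The sort was visible in *Ly6a*, which encodes SCA-1, at 153 to 294 normalized CPM (counts scaled to the TMM library size) in the SCA-1+ libraries and 2.46 to 59.2 in the others. *Cd34* stood at 468 to 1130 normalized CPM in CD49f+CD34+ libraries, at 320 and 383 in tdTneg CD49f+CD34+SCA-1+ libraries and at 22.3 to 35.7 in tdT+ CD49f+CD34+SCA-1+ libraries, so this defining marker was low in the last group. A row of the files that names no Ensembl gene held 133 to 307 CPM in the tdT+ libraries and 2.54 to 4.89 CPM in the tdTneg libraries, except for 2.05 CPM (37 counts) in the library carrying the label tdT+ CD49f+CD34+ replicate 2. The summed level of 8 bulge markers was 4410 to 7380 normalized CPM in the SCA-1+ libraries and 11601 to 22300 in the CD49f+CD34+ libraries, and all 8 were called lower in SCA-1+ cells. The sum of 9 T cell markers was 537 to 1258 in tdT+ CD49f+CD34+SCA-1+, 191 and 202 in tdTneg CD49f+CD34+SCA-1+ and 28.6 to 117 in CD49f+CD34+ libraries, and all 9 were called higher in SCA-1+ cells. The sum of 6 endothelial markers was 1633 and 1743 in the tdTneg CD49f+CD34+SCA-1+ libraries and 5.95 to 423 in all others, and that of 7 Langerhans cell and myeloid markers was 584 and 1049 against 14.7 to 546. That 423 came from this same library, tdT+ CD49f+CD34+ replicate 2 by its label. No T cell or endothelial marker was at 0 in any library, and *Tyrobp* of the myeloid list was at 0 in 1 library. The part of these cells in the results that follow was not tested.

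Counts were sufficient for a test of 32 of the 52 members, among 20307 genes tested. The 20 members without a test reached at most 43 counts and 1.42 normalized CPM in any library. They comprised 9 *Lce1*, 4 *Lce3* and 6 *Sprr2* genes and *Sprr3*, and *Lce3a* had no count in any library. Per kb of exon, the highest mean levels over the libraries were those of *Sprr1a* (190 normalized CPM per kb), *Tgm5* (131), *Ppl* (58.3), *Evpl* (42.6) and *Sprr1b* (31.0), followed by *Lor* (15.8), *Sprr4* (12.1), *Casp14* (10.9), *Tchh* (10.8) and *Ivl* (9.05). The order depended on the population. *Tgm5* led in tdTneg CD49f+CD34+ cells with 243 normalized CPM per kb, against 62.8 for *Sprr1a*, whereas *Sprr1a* led in tdTneg CD49f+CD34+SCA-1+ cells with 362, against 48.6 for *Tgm5*. Reads of near-identical genes limit some members: of their 50-base stretches, *Sprr2a1*, *Sprr2a2* and *Sprr2a3* share 96.3%, 96.5% and 61.1% with other genes, *Lce1* genes other than *Lce1m* 9.12% to 27.1% and *Lce3* genes 12.1% to 49.3%.

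**Figure D1:**
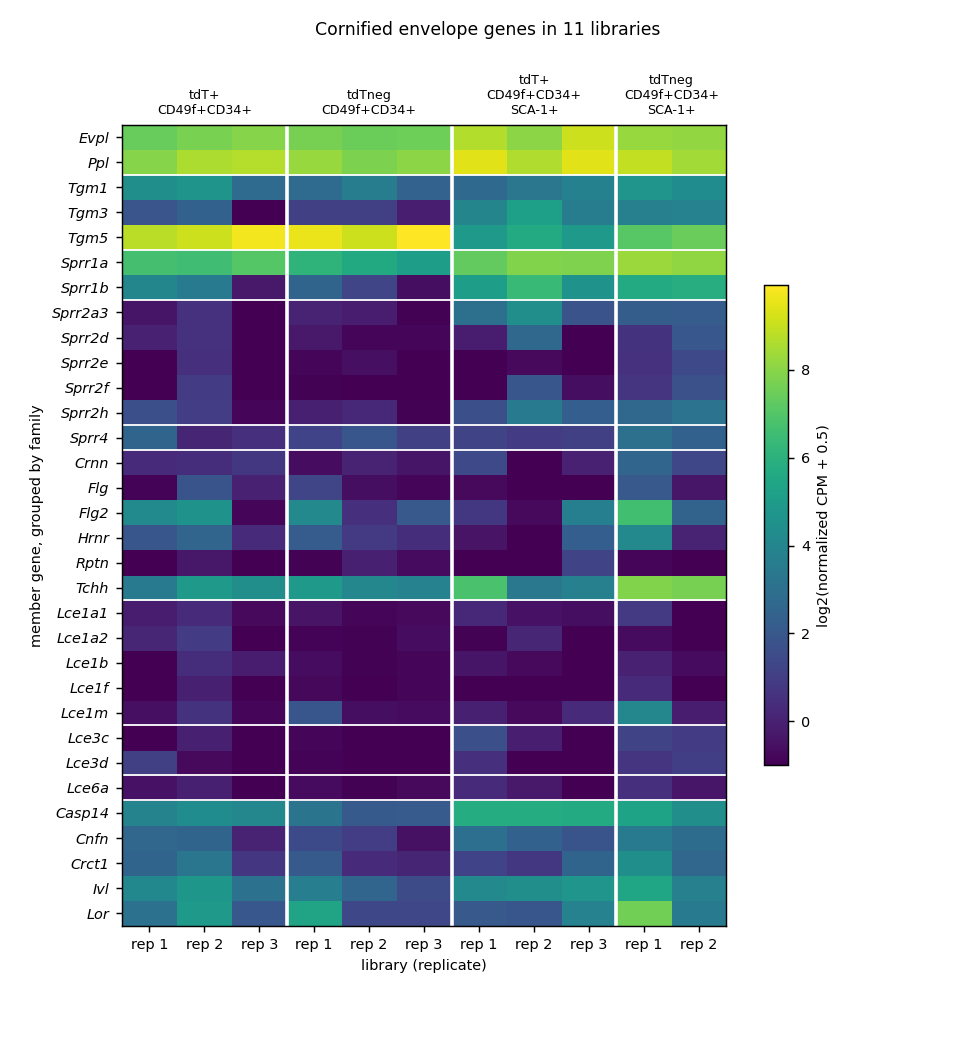
Level of the 32 tested members (rows, grouped by family) in the 11 libraries (columns, grouped by sort), as log2(normalized CPM + 0.5). *Evpl*, *Ppl* and *Sprr1a* are bright throughout, *Tgm5* is bright in CD49f+CD34+ libraries, and *Lor*, *Flg2* and *Lce1m* are brightest in tdTneg CD49f+CD34+SCA-1+ replicate 1.

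Between the populations, averaged over tdT status, 8 members were called: 7 were higher in CD49f+CD34+SCA-1+ cells (*Casp14*, *Sprr1a*, *Sprr1b*, *Sprr2a3*, *Sprr2h*, *Tchh* and *Tgm3*) and 1 was lower (*Tgm5*). These are 25% of the 32 tested and 15.4% of all 52 members, beside 11.6% of all genes tested, of which 4.77% were called higher and 6.79% lower. A member was called at a Benjamini-Hochberg adjusted p under 0.05 with a change of more than 1 log2 unit in either direction. The median log2 fold change was 1.12 over the 32 tested members and -0.09 over all genes tested. It was 1.73 on omission of replicate 2 of tdT+ CD49f+CD34+ and 1.64 on omission of replicate 1 of tdTneg CD49f+CD34+. Members entered the test only with enough counts in at least a few libraries, so the median describes those 32 and not the 52. The libraries of the 2 populations did not overlap for 7 tested members, 6 higher and 1 lower in SCA-1+ cells, beside 10.8% of all genes tested. Over the 5 pairs of libraries that share tdT status and replicate number, *Sprr2h* moved in its called direction in 4 and *Tchh* in 3. The other 6 called members did so in all 5 pairs. This follows from their libraries not overlapping and adds no support. In bulk RNA, fewer cells of a type and less RNA per cell cannot be told apart.

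*Tgm5*, the keratinocyte transglutaminase whose loss causes acral peeling skin, was the 1 member called lower in SCA-1+ cells. It stood at 449, 544 and 857 normalized CPM in the tdT+ CD49f+CD34+ libraries and at 775, 550 and 971 in the tdTneg CD49f+CD34+ libraries. In SCA-1+ cells it stood at 28.9, 51.3 and 29.7 (tdT+) and at 135 and 172 (tdTneg). Every SCA-1+ library was thus below every CD49f+CD34+ library, and the tdT+ SCA-1+ libraries were lowest of all. The log2 fold change was -3.20 ± 0.27 (SE; edgeR quasi-likelihood test, adjusted p = 0.000137). It was called in all 11 fits that left out 1 library, with log2 fold changes of -3.34 to -3.04. *Tgm3*, which acts in the upper epidermis and the hair follicle, showed the opposite order. It reached 15.2, 35.3 and 11.5 normalized CPM in tdT+ and 13.0 and 13.7 in tdTneg CD49f+CD34+SCA-1+ libraries, against 0 to 4.71 in the CD49f+CD34+ libraries, with no overlap. The log2 fold change of *Tgm3* was 3.21 ± 0.83 (adjusted p = 0.0247). This call was lost without tdT+ CD49f+CD34+ replicate 1 (adjusted p = 0.0504), tdTneg CD49f+CD34+ replicate 3 (0.0507), tdT+ CD49f+CD34+SCA-1+ replicate 2 (0.0558) or either tdTneg CD49f+CD34+SCA-1+ library (0.0751 and 0.0662). *Tgm1*, the main membrane-bound transglutaminase of the epidermis, ranged from 4.98 to 24.4 normalized CPM in CD49f+CD34+ and from 6.10 to 25.7 in SCA-1+ libraries, which overlapped (log2 fold change 0.35 ± 0.38, adjusted p = 0.56). A gene on the opposite strand, *Gm49067*, overlaps 5.76% of the *Tgm1* exons, and the library kit does not mark strand.

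*Casp14*, the caspase of cornification that takes part in filaggrin breakdown, was called higher in SCA-1+ cells. It stood at 14.5, 19.4 and 16.1 normalized CPM in tdT+ and at 8.78, 3.81 and 3.93 in tdTneg CD49f+CD34+ libraries. It rose to 53.3, 54.3 and 51.1 in tdT+ and to 39.9 and 20.6 in tdTneg CD49f+CD34+SCA-1+ libraries. None of the 4 groups overlapped another, beside 1.43% of all genes tested, and the spread of the tdT+ SCA-1+ libraries was narrow (52.9 ± 1.60, SD, n = 3). SCA-1+ cells exceeded CD49f+CD34+ cells by 2.06 ± 0.26 log2 units (edgeR, adjusted p = 0.000748), and *Casp14* was called in all 11 fits without 1 library. Between tdT+ and tdTneg cells *Casp14* was called by edgeR in neither population (1.60 ± 0.35, adjusted p = 0.214, in CD49f+CD34+ and 0.80 ± 0.39, adjusted p = 0.393, in SCA-1+ cells), and of all genes tested 16% and 33% had no overlap of tdT+ and tdTneg libraries in these populations.

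The small proline-rich genes accounted for 4 of the 7 members called higher. *Sprr1a* stood at 105, 94.4 and 131 normalized CPM in tdT+ and at 69.2, 49.0 and 33.6 in tdTneg CD49f+CD34+ libraries, and at 156, 231 and 227 in tdT+ and 307 and 277 in tdTneg CD49f+CD34+SCA-1+ libraries. Its 4 groups did not overlap either, but tdT+ libraries were above tdTneg libraries in CD49f+CD34+ cells and below them in SCA-1+ cells. SCA-1+ cells were higher by 1.71 ± 0.19 log2 units (edgeR, adjusted p = 0.000458), called in all 11 fits without 1 library. *Sprr1b*, its neighbour on chromosome 3, varied far more between libraries. It stood at 15.8, 11.1 and 0.331 normalized CPM in tdT+ and 5.25, 1.96 and 0.171 in tdTneg CD49f+CD34+ libraries, and at 34.4, 83.0 and 23.5 in tdT+ and 51.3 and 55.8 in tdTneg SCA-1+ libraries. The populations did not overlap, and within CD49f+CD34+ cells both replicates 3 were near 0. Its log2 fold change was 3.40 ± 0.89 (adjusted p = 0.0260), which was no longer called without tdT+ CD49f+CD34+SCA-1+ replicate 2 (adjusted p = 0.0551) or either tdTneg CD49f+CD34+SCA-1+ library (0.0749 and 0.0663).

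Of the 11 *Sprr2* genes, 5 were tested and 2 were called. *Sprr2h* stood at 2.72, 1.5 and 0.0551 normalized CPM in tdT+ and 0.475, 0.661 and 0.0244 in tdTneg CD49f+CD34+ libraries, and at 2.66, 11.3 and 4.34 in tdT+ and 5.85 and 8.38 in tdTneg SCA-1+ libraries. One pair of libraries overlapped, both of replicate 1 of tdT+ cells. The log2 fold change of *Sprr2h* was 3.14 ± 0.88 (edgeR, adjusted p = 0.0342), and it was called in 5 of the 11 fits without 1 library. With age as a term the adjusted p was 0.0525. It was 0.0632 without tdT+ CD49f+CD34+ replicate 2, 0.0604 without tdTneg CD49f+CD34+ replicate 1, 0.0670 and 0.0527 on omission of replicates 2 and 3 of tdT+ CD49f+CD34+SCA-1+, and 0.0876 and 0.0987 on omission of the libraries of tdTneg CD49f+CD34+SCA-1+. *Sprr2a3* reached 7.57, 20.6 and 2.99 normalized CPM in tdT+ and 4.21 and 3.98 in tdTneg SCA-1+ libraries, against at most 0.964 in CD49f+CD34+ libraries. There was no overlap, and its log2 fold change of 4.15 ± 0.94 (adjusted p = 0.0135) was called in all 11 fits without 1 library. Since most of its sequence is shared with *Sprr2a1* and *Sprr2a2*, its count cannot be assigned to 1 of these genes with certainty. Summed over the 11 genes, *Sprr2* reached 8.62 to 43.0 normalized CPM in SCA-1+ libraries and 0.0551 to 5.68 in CD49f+CD34+ libraries, without overlap. *Sprr4* was not called. It ranged from 0.589 to 5.30 normalized CPM in CD49f+CD34+ and from 1.42 to 7.75 in SCA-1+ libraries (log2 fold change 0.50 ± 0.56, adjusted p = 0.575). Omission of 1 library gave 0.27 (tdT+ CD49f+CD34+ replicate 2) to 1.28 (tdT+ CD49f+CD34+ replicate 1), with adjusted p of 0.0535 or more.

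*Tchh* was called higher in SCA-1+ cells, but not in every pair of libraries. It stood at 10.9, 29.8 and 20.6 normalized CPM in tdT+ and 28.6, 16 and 14 in tdTneg CD49f+CD34+ libraries. In SCA-1+ cells it stood at 229 and 207 in the tdTneg libraries, at 110 in tdT+ replicate 1 and at 9.88 and 12.9 in tdT+ replicates 2 and 3. Both of these last libraries were thus within or below the range of the CD49f+CD34+ libraries. They are of 32 weeks, as is tdTneg SCA-1+ replicate 2, which stood at 207. On the log2 scale the populations differed by 2.30 ± 0.60 (edgeR, adjusted p = 0.0255). Omission of 1 library gave 1.32 to 2.55, the lowest without tdT+ CD49f+CD34+SCA-1+ replicate 1. Within tdT+ cells the difference was 1.12 ± 0.80 (adjusted p = 0.374), and -0.84 without that library. Within tdTneg cells it was 3.48 ± 0.90 (adjusted p = 0.0530). There edgeR called *Tchh* with RLE size factors (0.0456), with at least 1 count (0.00134) or 10 counts (0.0229) as the filter, with age as a term (0.0498), with only the compared groups (0.00704) and in 3 of 11 fits without 1 library. Averaged over tdT status, the edgeR call of *Tchh* between the populations did not hold under every setting. In that comparison *Tchh* was not called with the replicate number as a block (adjusted p = 0.0638) or with age as a term (0.0501). It was also not called without tdT+ CD49f+CD34+ replicate 1 (0.0568), tdTneg CD49f+CD34+ replicate 3 (0.0566) or either tdTneg CD49f+CD34+SCA-1+ library (0.0840 and 0.0636). The summed level of 12 other genes of the inner root sheath followed the same libraries, with 423 and 466 normalized CPM in tdTneg SCA-1+ cells, 190 in tdT+ SCA-1+ replicate 1 and 29.9 to 85.9 in all others. Of these 12 genes, *Foxn1*, *Krt27* and *Krt71* were called higher and *Hoxc13* lower in SCA-1+ cells (median log2 fold change 1.56). *Krt71*, an inner root sheath keratin, stood at 194 and 225 normalized CPM in tdTneg SCA-1+ cells and at 97.9, 7.10 and 3.46 in tdT+ SCA-1+ cells.

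**Figure D2:**
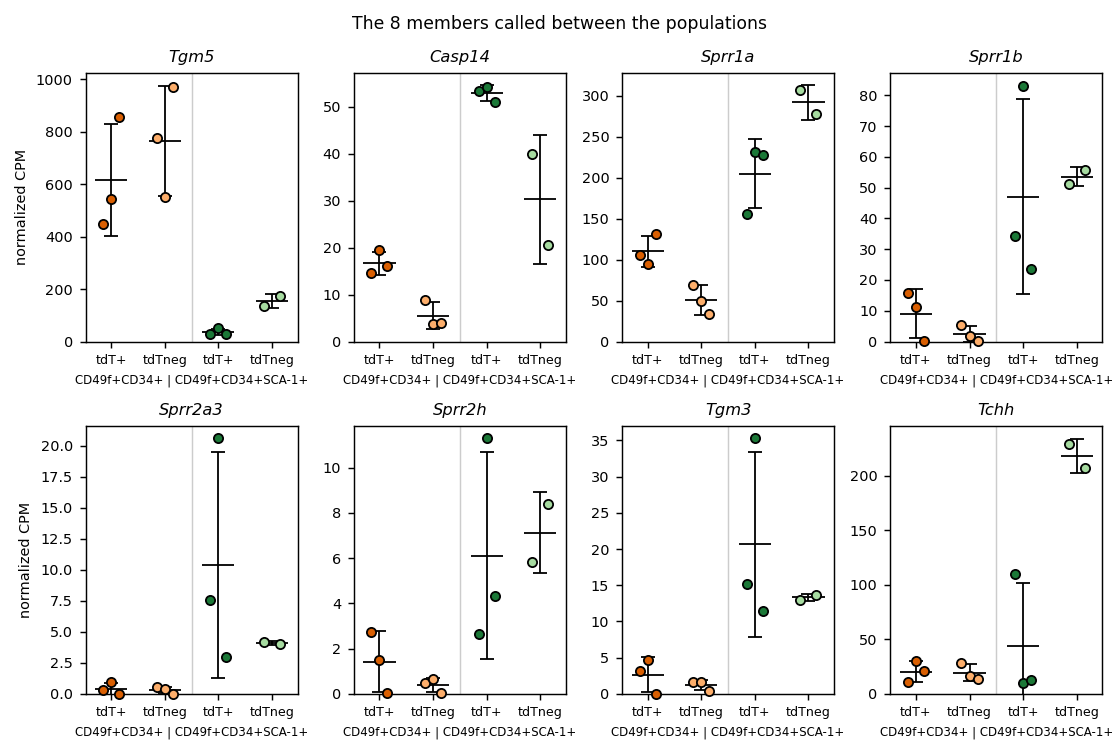
Normalized CPM of the 8 members called between the populations, with 1 point for each library, and the mean and SD of each group as lines (n = 3, or n = 2 for tdTneg CD49f+CD34+SCA-1+). Only *Tgm5* is lower in SCA-1+ cells, and the tdT+ SCA-1+ points of *Tchh* range from 9.88 to 110.

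None of the scaffold genes *Evpl*, *Ppl* and *Ivl* was called by edgeR between the populations. *Evpl* stood at 169 to 243 normalized CPM in CD49f+CD34+ libraries and at 259 to 547 in SCA-1+ libraries, without overlap, and *Ppl* at 216 to 422 and 337 to 685, with overlap. Their log2 fold changes of 0.79 ± 0.18 (*Evpl*, adjusted p = 0.0142) and 0.71 ± 0.20 (*Ppl*, adjusted p = 0.0372) passed the p threshold but not that for the fold. *Ivl* ranged from 2.32 to 26.8 normalized CPM in CD49f+CD34+ and from 13.2 to 43.8 in SCA-1+ libraries, which overlapped, with a log2 fold change of 1.20 ± 0.48 (adjusted p = 0.104). It was called by DESeq2 (1.23, adjusted p = 0.0272), by edgeR with the minimum filter of 1 count (1.17, adjusted p = 0.0448) and without tdTneg CD49f+CD34+ replicate 1 (1.59, adjusted p = 0.0412). Without tdTneg CD49f+CD34+SCA-1+ replicate 1 the log2 fold change was 0.64 (adjusted p = 0.467). *Cnfn*, which encodes cornifelin, ranged from 0.195 to 5.57 and from 3.05 to 11.2 (1.60 ± 0.67, adjusted p = 0.122), and DESeq2 called it (1.61, adjusted p = 0.0353).

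*Lor* and several genes of the granular layer and the late envelope, named after their values were seen, were highest in a single library. *Lor* stood at 8.16, 28.8 and 3.42 normalized CPM in tdT+ and 41.2, 2.11 and 2.02 in tdTneg CD49f+CD34+ libraries, and at 3.62, 3.29 and 13.7 in tdT+ SCA-1+ libraries. In tdTneg SCA-1+ cells it stood at 191 in replicate 1 and at 11.1 in replicate 2. That 1 library held 61.9% of the *Lor* level summed over the 11 libraries. *Flg2*, a filaggrin relative, reached 97.6 normalized CPM there and 0.0551 to 23.6 elsewhere. *Lce1m* reached 15.9 against at most 3.33, *Crct1* 21.2 against at most 9.27 and *Hrnr*, which encodes hornerin, 17.4 against at most 5.36. In all, 16 of the 32 tested members had their highest level in tdTneg CD49f+CD34+SCA-1+ replicate 1 and 7 in tdT+ CD49f+CD34+SCA-1+ replicate 2. How many of all genes tested were highest in these libraries was not determined, so the counts describe the members only. Among CD49f+CD34+ libraries, *Lor* and *Lce1m* were highest in tdTneg replicate 1, which is of the same age as tdTneg CD49f+CD34+SCA-1+ replicate 1. Replicate 1 of tdT+ cells is of that age in both populations. There *Lor* stood at 8.16 (CD49f+CD34+) and 3.62 (SCA-1+) and *Lce1m* at 0.181 and 0.48. *Flg2*, *Crct1*, *Hrnr* and *Flg* were highest among CD49f+CD34+ libraries in that labelled tdT+ CD49f+CD34+ replicate 2. None of these members was called between the populations. The log2 fold change of *Lor* was 0.88 ± 0.99 (edgeR, adjusted p = 0.575) and ranged from -0.72 to 2.32 as single libraries were left out. The 14 *Lce1* genes summed to 19.3 normalized CPM in tdTneg CD49f+CD34+SCA-1+ replicate 1 and to 0.551 to 6.86 in the other 10 libraries, and the 6 *Lce3* genes to at most 3.54 in any library.

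**Figure D3:**
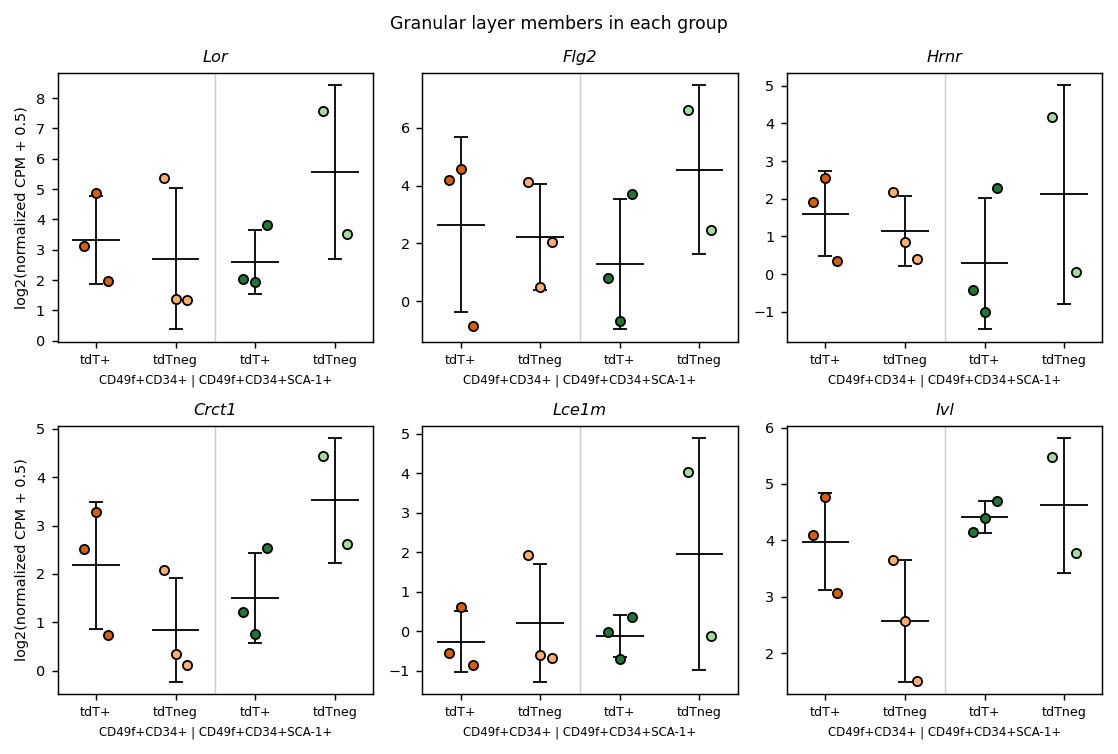
Level of *Lor*, *Flg2*, *Hrnr*, *Crct1*, *Lce1m* and *Ivl* as log2(normalized CPM + 0.5), with 1 point for each library, and the mean and SD of each group as lines (n = 3, or n = 2 for tdTneg CD49f+CD34+SCA-1+). One tdTneg SCA-1+ library lies above all others in every panel.

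Within each tdT status, fewer members were called in the main edgeR fit. For tdTneg cells some other settings called more members and some fewer, as counted below. DESeq2 added, among others, *Sprr1b* (4.52, adjusted p = 0.0118), *Sprr2h* (4.27, 0.00225), *Sprr2a3* (3.74, 0.00867) and *Ivl* (2.18, 0.00997) within tdTneg cells. Within tdT+ cells, *Casp14* (1.67 ± 0.35, adjusted p = 0.0138) and *Sprr2a3* (4.64 ± 1.34, adjusted p = 0.0488) were higher and *Tgm5* was lower (-4.07 ± 0.36, adjusted p = 0.000267) in SCA-1+ than in CD49f+CD34+ cells on the log2 scale. These 3 are 9.38% of the tested members, beside 8.45% of all genes, of which 2.91% were called higher and 5.54% lower. *Sprr1a* differed by 0.89 ± 0.26 (adjusted p = 0.0499), under the fold threshold. The *Casp14* call was lost without tdT+ CD49f+CD34+ replicate 1 (adjusted p = 0.0537), and *Sprr2a3* was called in 3 of 11 fits without 1 library, with adjusted p from 0.0380 to 0.141 and log2 fold changes from 3.63 (without tdT+ CD49f+CD34+SCA-1+ replicate 2) to 6.15 (without replicate 2 of tdT+ CD49f+CD34+). The *Sprr2a3* call was also lost with RLE size factors (adjusted p = 0.0519), with age as a term (0.0714) and with only the compared groups in the fit (0.0574). The 8 fits that lost *Sprr2a3* left out each SCA-1+ library in turn, tdT+ CD49f+CD34+ replicates 1 and 3 and tdTneg CD49f+CD34+ replicate 1. With the replicate number as a block 5 members were called, *Sprr1b* (3.36, adjusted p = 0.0403) and *Tgm3* (3.59, adjusted p = 0.0451) being added. Within tdTneg cells, *Casp14* (2.46 ± 0.38, adjusted p = 0.00985) and *Sprr1a* (2.53 ± 0.29, adjusted p = 0.00471) were higher and *Tgm5* was lower (-2.32 ± 0.39, adjusted p = 0.0117). These are again 9.38% of the tested members, beside 4.74% of all genes, with 3.29% called higher and 1.45% lower. *Casp14* was lost without tdTneg CD49f+CD34+SCA-1+ replicate 1 (adjusted p = 0.101), and *Tgm5* without replicate 1 (0.128) or replicate 2 (0.0548) of that group.

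The median log2 fold change of the tested members was 0.22 within tdT+ cells, with 17 positive and 15 negative, and 2.77 within tdTneg cells, with 29 positive and 3 negative. Over all genes tested the medians were -0.07 and -0.13. Omission of 1 library took the first from -0.50 (tdT+ CD49f+CD34+SCA-1+ replicate 1) to 0.79 (replicate 2 of tdT+ CD49f+CD34+) and the second from 1.5 (tdTneg CD49f+CD34+SCA-1+ replicate 1) to 3.57 (tdTneg CD49f+CD34+ replicate 1). The endothelial markers *Egfl7* (3.85 ± 0.87, edgeR, adjusted p = 0.0327) and *Tek* (5.08 ± 1.08, adjusted p = 0.0264) were also called higher within tdTneg cells, and their part in the members' values was not tested. *Lor*, *Crct1*, *Flg2*, *Hrnr*, *Tgm1*, *Sprr4* and *Flg* were among those with negative values within tdT+ and positive values within tdTneg cells, and edgeR called none of these values. DESeq2 called *Flg* lower within tdT+ cells (-4.92, adjusted p = 0.0274). The tdTneg side rests on 2 SCA-1+ libraries, 1 of them the library in which *Lor* was at 191 normalized CPM. Without that library the log2 fold change of *Lor* within tdTneg cells was -0.46. *Lce1f* had no count in tdT+ SCA-1+ libraries. Setting it to the bound that 3 counts allow left the medians as they were.

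**Figure D4:**
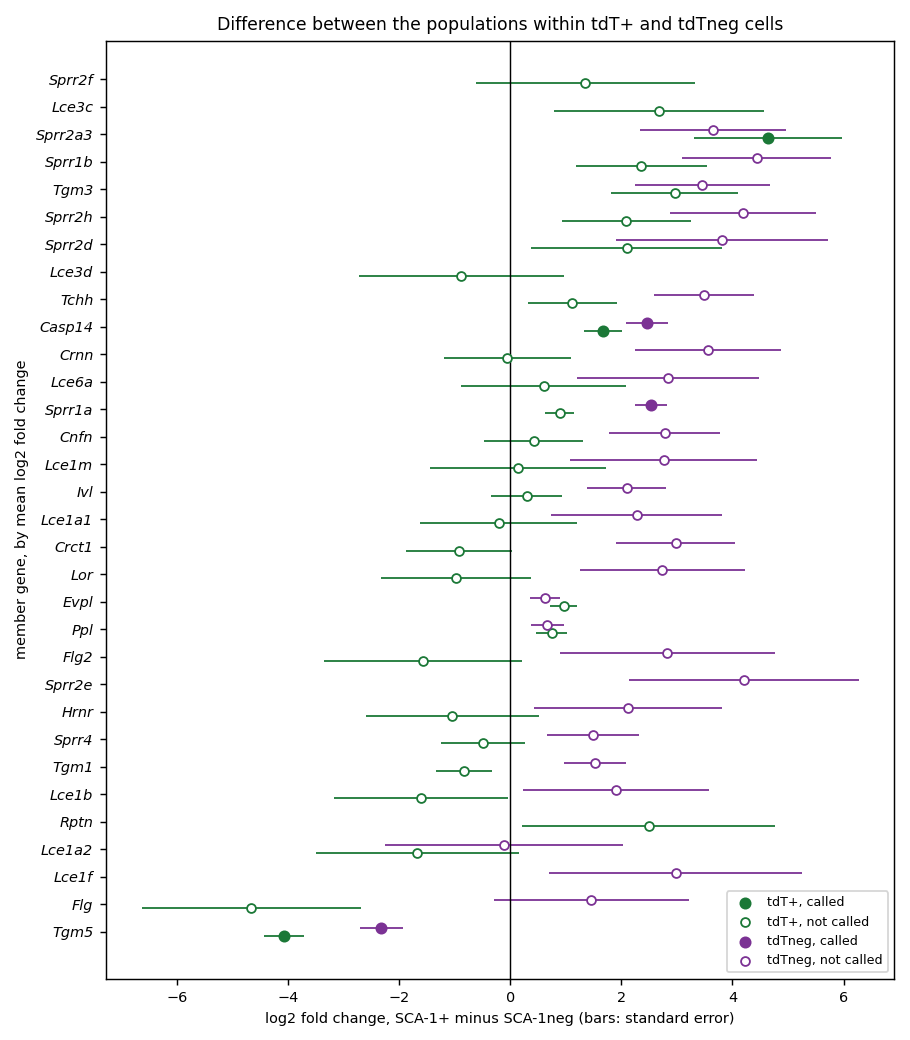
Log2 fold change (points) with its standard error (bars) between SCA-1+ and CD49f+CD34+ cells, within tdT+ and within tdTneg cells, for members with over 3 counts in both groups (30 and 28 of the 32 tested). Filled points were called; *Tgm5* is negative and *Casp14* positive in both.

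Between tdT+ and tdTneg CD49f+CD34+ cells no member was called by edgeR, beside 0.00985% of all genes (2 of 20307). At an unadjusted p under 0.05, 3 members (*Casp14*, *Sprr1a* and *Tgm1*) and 1709 of all genes passed. The 3 differed by 1.60 ± 0.35 (*Casp14*, adjusted p = 0.214), 1.12 ± 0.26 (*Sprr1a*, adjusted p = 0.231) and 1.15 ± 0.51 (*Tgm1*, adjusted p = 0.589) on the log2 scale. The tdT+ libraries of *Casp14* and *Sprr1a* were all above the tdTneg libraries, where 16% of all genes tested had no overlap. One of these tdT+ libraries, replicate 2 by its label, is in doubt, since it was at the tdTneg level in the row that names no Ensembl gene. Without it *Casp14* differed by 1.47 (adjusted p = 0.443), *Sprr1a* by 1.22 (0.355) and *Tgm1* by 0.82 (0.793). DESeq2 called 2 members, *Casp14* (1.68, adjusted p = 0.000456) and *Sprr1a* (1.21, adjusted p = 0.00259), beside 0.924% of all 40782 genes it tested. With the minimum filter of 1 count, edgeR called the same 2 (adjusted p = 0.0219 and 0.0220), beside 0.402% of 41302 genes. The median over the tested members was 1.41, with 28 positive and 4 negative values, against -0.03 over all genes. It was 0.46 without the library in doubt and 2.08 without tdTneg replicate 1. Markers of other cells were also higher in these tdT+ libraries: the T cell markers had a median of 3.26 and sums of 88.9 to 117 normalized CPM against 28.6 to 43.8, and the 6 suprabasal interfollicular markers a median of 1.66 and sums of 2721 to 5122 against 1397 to 2529. Neither pair of ranges overlapped, no gene of these lists was called, and their part in the members' values was not tested.

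Between tdT+ and tdTneg CD49f+CD34+SCA-1+ cells, *Tgm5* was called lower in tdT+ cells (-2.07 ± 0.35, edgeR, adjusted p = 0.0147). It is 3.12% of the tested members, beside 2.31% of all genes called and 2.06% called lower. All 3 tdT+ libraries were below both tdTneg libraries. Of all genes tested, 33% had no overlap of tdT+ and tdTneg libraries in these cells. In the same comparison the bulge markers *Cd34* (-3.68), *Lhx2* (-2.69) and *Lgr5* (-2.31) and the endothelial markers *Egfl7* (-5.34) and *Tek* (-4.85) were called lower on the log2 scale, and 4 of the 9 T cell markers were called higher, from 2.95 (*Cd3e*) to 4.11 (*Trac*). Of the 12 inner root sheath genes, with a median of -2.55, *Krt73* was called lower (-5.92). The part of these cells in the members' values was not tested. The call of *Tgm5* was lost without tdT+ replicate 1 (adjusted p = 0.0605), tdT+ replicate 3 (0.0666) or tdTneg replicate 2 (0.118). *Tchh* differed by -2.30 ± 0.87 (adjusted p = 0.250). It was called by edgeR without tdT+ replicate 1 (-4.26, adjusted p = 0.00907) and with the minimum filter of 1 count (-2.34, adjusted p = 0.0452). *Sprr1a* differed by -0.51 ± 0.28 (adjusted p = 0.463), with the tdT+ libraries all below the tdTneg libraries. DESeq2 called *Tgm5* and *Flg* (-5.64, adjusted p = 0.0418). The median of the tested members was -0.85, with 7 positive and 25 negative values, against 0.04 over all genes. It ranged from -1.82 without tdT+ replicate 1 to -0.06 without tdTneg replicate 1.

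The difference of the tdT effect between the populations was tested as an interaction, for which no member was called by edgeR, beside 0.389% of all genes. At an unadjusted p under 0.05, 7 members and 2517 of all genes passed. *Sprr1a*, whose tdT+ libraries were above tdTneg in one population and below in the other, gave -1.64 ± 0.38 (adjusted p = 0.106), and *Tgm5* gave -1.75 ± 0.47 (adjusted p = 0.163). DESeq2 called 4 members, among them *Sprr1a* (-1.75, adjusted p = 0.00236) and *Tgm5* (-1.87, adjusted p = 0.00488), beside 2.07% of all genes. With the minimum filter of 1 count edgeR called these 2 (adjusted p = 0.00626 and 0.0111), beside 1.38% of all genes. With at least 10 counts in every library edgeR called *Sprr1a* (-1.77, adjusted p = 0.0427), beside 263 of 12633 genes. Of the listed genes outside the members, the main edgeR fit called the bulge marker *Cd34* (-3.31 ± 0.43, adjusted p = 0.0132) and the inner root sheath keratin gene *Krt73* (-5.15 ± 0.88, adjusted p = 0.0439). *Tchh* was called by edgeR on omission of replicate 1 of tdT+ CD49f+CD34+SCA-1+ (-4.33, adjusted p = 0.0441).

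The genes that act with the members were read as fixed lists. Of 25 partners of the envelope outside the rule, 7 were called higher in SCA-1+ cells and 1 lower (median log2 fold change 0.83). Over all genes tested, 4.77% were called higher and 6.79% lower, with a median of -0.09, which is the background for all 3 lists. The largest rises were those of the suprabasal keratins *Krt1* (2.97 ± 0.56, edgeR, adjusted p = 0.00554) and *Krt10* (2.23 ± 0.55, adjusted p = 0.0203), of *Calm4*, a calcium-binding calmodulin relative of the epidermis (2.36 ± 0.38, adjusted p = 0.00234), and of *Csta1*, a cystatin (2.25 ± 0.56, adjusted p = 0.0203). *Calml3*, a calmodulin-like gene, was lower (-2.21 ± 0.28, adjusted p = 0.000721). Of 24 proteases, inhibitors and deiminases of cornification, 21 were tested, 7 were higher and 1 was lower (median 1.10). The kallikreins *Klk8* and *Klk11*, of the family of proteases that takes part in desquamation, and the deiminases *Padi2* and *Padi3* rose most, and the lysosomal protease gene *Ctsl* was lower. *Padi3* was high only in tdTneg SCA-1+ libraries (9.59 and 9.42 normalized CPM). It stood at 1.19 to 1.2 in tdT+ SCA-1+ and 0.11 to 2.23 in CD49f+CD34+ libraries, and was called within neither tdT status. *Klk8* stood at 25.2 to 55.3 normalized CPM in SCA-1+ libraries and at 2.83 to 10.8 in CD49f+CD34+ libraries (2.55 ± 0.24, adjusted p = 0.000206).

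Of 22 regulators of terminal differentiation, 7 were called higher, *Grhl3*, *Zfp750*, *Pou2f3* and *Satb1* by most, and 3 lower (*Sox9*, *Barx2* and *Hopx*), with a median of 0.23. *Grhl3*, a grainyhead-like factor of barrier formation, followed the order of *Casp14*: it stood at 20.6, 22.3 and 21.9 normalized CPM in tdT+ and 10.7, 3.44 and 4.22 in tdTneg CD49f+CD34+ libraries, and at 59.8, 61.1 and 68.5 in tdT+ and 53.9 and 37.8 in tdTneg SCA-1+ libraries. None of its 4 groups overlapped another (2.22 ± 0.27, edgeR, adjusted p = 0.000663). No gene of these 3 lists was called between tdT+ and tdTneg cells in either population.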

How the data were processed

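RNA of 11 libraries of sorted epidermal cells was measured by RNA-seq (TruSeq RNA v2, a kit that does not mark strand). The deposited values are whole-number counts of reads per gene, which the authors made with STAR and featureCounts on mm10 and Ensembl release 96. The strand setting is not given in the sources used here. 1 row outside the Ensembl genes (0.000205% to 0.0307% of counts) was kept out of totals and tests. Group and replicate number came from the sample labels.

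Counts were fitted over all genes in edgeR 4.0.16 (R 4.3.3) with 1 mean for each of the 4 groups, TMM normalization, filterByExpr, and the quasi-likelihood F-test with Benjamini-Hochberg adjustment. Genes were called at an adjusted p under 0.05 with a change of more than 1 log2 unit. Normalized CPM are counts scaled to the TMM library size, and levels were divided by exon length (GENCODE M21) to compare genes. The biological coefficient of variation was 0.61, and the depth of 17409131 to 46542177 counts sets the counting error. Before use, the script was tested on simulated data with changes of known size. Figures used Python 3.11.15, numpy 2.4.6, pandas 2.3.3 and matplotlib 3.10.9.

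The alternatives were DESeq2 1.42.0, filters of at least 1 count in any library or 10 in every library, RLE size factors, no fold threshold, age as a term, a replicate block, a fit of the compared groups alone, and omission of each library. Omission of tdTneg CD49f+CD34+SCA-1+ replicate 1 together with the library labelled tdT+ CD49f+CD34+ replicate 2 was added after seeing the data. The paper describes each biological replicate as material of 2 mice, so the number was read as a shared pool. Over 15 pairs of libraries of one number, deviations from the group means correlated across genes with a median of 0.083 (-0.42 to 0.59), against -0.023 over 30 other pairs.

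The members and lists were chosen with earlier results of these data known. Members named in full were those called in at least 1 comparison and the 10 with the highest level per kb, and of the lists up to 4 called genes with the largest change. *Tgm1*, *Cnfn*, *Crct1*, *Flg*, *Flg2*, *Hrnr*, *Lce1f*, *Lce1m*, *Calml3*, *Ctsl*, *Sox9*, *Barx2* and *Hopx* were named after their values were seen.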

Additional observations from a re-analysis of the deposited data

Results flagged for a closer look

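Within the 5 SCA-1+ and the 6 CD49f+CD34+ libraries, the highest or lowest library of each tested member was compared with its nearest neighbour by Dixon's ratio at 95%. This marked 17 of 64 groups of libraries, where chance marks about 1 in 20 for independent, normally distributed values. The levels are skewed and members vary together, so that rate is no measure of chance here. Groups of both tdT states were pooled for it, so a difference between tdT+ and tdTneg cells can enter.

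In tdTneg CD49f+CD34+SCA-1+ replicate 1, 7 members stood apart: *Lor* at 191 normalized CPM (next library 13.7), *Flg2* at 97.6 (12.7), *Crct1* at 21.2 (5.61), *Hrnr* at 17.4 (4.34), *Lce1m* at 15.9 (0.774), *Flg* at 3.70 (0.293) and *Lce1f* at 0.759 (0). In tdT+ CD49f+CD34+SCA-1+ replicate 2, *Tgm3* stood at 35.3 normalized CPM (15.2), *Sprr2a3* at 20.6 (7.57) and *Lce1a2* at 0.625 (0.127). *Rptn*, the repetin gene, stood at 1.86 in tdT+ CD49f+CD34+SCA-1+ replicate 3 and at no more than 0.0633 in the other SCA-1+ libraries.

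Among CD49f+CD34+ libraries, the library labelled tdT+ CD49f+CD34+ replicate 2 stood apart in *Sprr2f* (1.34 normalized CPM), *Sprr2e* (0.910), *Lce1f* (0.482) and *Lce3c* (0.482). *Lce3d* stood at 1.63 in tdT+ CD49f+CD34+ replicate 1 and *Lce1m* at 3.33 in tdTneg CD49f+CD34+ replicate 1. Outside the comparisons, the row that names no Ensembl gene reached 307 CPM in a tdT+ library, above the 2.54 to 4.89 CPM of the tdTneg libraries.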

How the results depend on the processing

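For the members named in full, 15 pairs of member and comparison were called, and over their 271 alternative values 224 stayed called, 47 were no longer called and none turned direction while called. Of 1160 values of pairs not called, 44 became called. Members called between the populations (8) numbered 12 by DESeq2, which added *Sprr2d*, *Sprr2f*, *Lce3c*, *Ivl* and *Cnfn* and lacked *Tchh*, 11 with at least 1 count in any library, 10 with no fold threshold, which added *Evpl* and *Ppl*, 6 with age as a term, 4 with at least 10 counts in every library, and 4 without the 2 libraries that stand apart. These 2 libraries were chosen after seeing the data. The 4 still called without them were *Casp14*, *Sprr1a*, *Sprr2a3* and *Tgm5*. Leaving out 1 library each gave 4 to 9. Within tdT+ cells (3), the count was 5 with no fold threshold, 5 with the replicate block, 2 without those 2 libraries and 1 to 4 without 1 library. Within tdTneg cells (3), it was 13 by DESeq2, 10 with at least 1 count in any library, 9 with only the groups compared, 1 without those 2 libraries and 1 to 6 without 1 library. For tdT in CD49f+CD34+ cells (0), it was 2 by DESeq2, 2 with at least 1 count in any library and 0 without 1 library. For tdT in CD49f+CD34+SCA-1+ cells (1), it was 2 by DESeq2, 2 with at least 1 count, 0 without those 2 libraries and 0 to 1 without 1 library. For the difference of the tdT effect (0), it was 4 by DESeq2, 2 with at least 1 count, 1 with at least 10 counts in every library and 0 to 1 without 1 library. The cause of these shifts was not tested. Over all genes, the alternatives called 1160 to 3917 genes between the populations, 1174 to 3423 within tdT+, 55 to 2162 within tdTneg, 0 to 377 and 97 to 1230 for tdT in the 2 populations, and 1 to 845 for the difference. The replicate block also added *Sprr1b* within tdTneg cells (4.20, edgeR, adjusted p = 0.0389), and beside the changes given with *Tchh*, *Sprr1b* and *Tgm3* it altered no other call of a named member. Without a tdTneg CD49f+CD34+SCA-1+ library, that group has 1 library, which is assumed to vary like the others. DESeq2 gave no adjusted p for *Tchh* between the populations. The 20 members without a test had at most 43 counts in any library.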

Other observations

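The other marker lists were read in the same comparison of the populations. Of 6 suprabasal interfollicular genes, *Krt1*, *Krt10*, *Mt4* and *Krtdap* were called higher in SCA-1+ cells, and their sum was 3608 to 10885 normalized CPM in SCA-1+ and 1397 to 5122 in CD49f+CD34+ libraries. Of 6 basal keratinocyte genes, *Krt14* and *Itga6* were higher. Of 6 upper follicle genes *Krt79* was higher, and of 6 sebaceous gland genes *Mgst1* was lower. Of 7 melanocyte genes, *Mitf*, *Dct* and *Tyrp1* were lower, with sums of 17.2 to 62.6 normalized CPM in SCA-1+ and 102 to 163 in CD49f+CD34+ libraries. Of 7 Langerhans cell and myeloid genes, *Cd207*, *Cd74*, *H2-Ab1* and *H2-Aa* were higher. In this comparison edgeR's quasi-likelihood test called none of 6 fibroblast and 6 endothelial genes, and within tdTneg cells the endothelial genes *Egfl7* and *Tek* were called higher.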
